A study of Homo sapiens with 6 samples.

Results

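Cadherins are membrane proteins that join neighboring cells through calcium-dependent contacts of their outer repeats. Classical cadherins bind p120 and beta-catenin inside the cell, and through alpha-catenin they connect to actin. Type I members, such as CDH1 (E-cadherin) and CDH2 (N-cadherin), and type II members, which are common in the nervous system, differ in how the outermost repeat pairs across cells. Cadherin switching names the replacement of 1 member by another in a cell, most often of CDH1 by CDH2.

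The genes described here were 10 of the 58735 in the count table: the type I genes CDH2, CDH3 and CDH4, the type II genes CDH6, CDH7, CDH8, CDH10, CDH11 and CDH12, and CDH13 (T-cadherin), which is held by a lipid anchor, lacks a catenin-binding tail and is not a classical cadherin. They were chosen by name with the difference between the WT and GFI1-KO libraries already known, so their counts in that contrast are given as a description without a test. The lists of other genes were also chosen with earlier results of these data known, so the p-values of their genes are descriptive too. RNA-Seq was run on H1155 cells, a human large cell lung cancer line with neuroendocrine features, in 3 WT and 3 GFI1-KO libraries of untreated cells grown in DMEM with serum. GFI1 is a zinc finger repressor. The GFI1-KO cells carry a CRISPR/Cas9 deletion in the GFI1 promoter region and were sorted as GFP-positive single clones, but which clone gave which library is not stated, and neither is whether libraries of a group came from separate cultures, so that p-values measure only the spread between these libraries.

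Library totals lay between 14882914 and 17692882 counts. GFI1, the targeted gene, had 153, 106 and 125 counts in WT and 174, 188 and 170 in GFI1-KO. It was thus higher, not lower, under the label GFI1-KO (log2 fold change 0.31, SE 0.12, edgeR adjusted p = 0.0273), and every direction given here rests on the labels. Counts over exons outside the deleted promoter region do not check the deletion. The neuroendocrine label was checked with 8 marker genes, whose summed level was 406 to 413 FPKM in WT and 402 to 414 in GFI1-KO. Of 4 leukocyte markers CD3E had no count, and their sum was 0.0911 to 0.157 FPKM in WT and 0.0724 to 0.206 in GFI1-KO. The 4 endothelial markers summed to 3.55 to 3.97 FPKM in WT and 1.74 to 1.98 in GFI1-KO. Most of that was PECAM1 (means 3.56 and 1.62), with VWF and TEK near 0 and CDH5 overlapping between groups. The 4 fibroblast markers summed to 1.92 to 2.09 and 0.646 to 0.733, nearly all COL1A1 and PDGFRB, with DCN at 0 in every library. The 7 epithelial markers summed to 52.2 to 54.2 FPKM in WT and 53.3 to 58.8 in GFI1-KO. Of 6 tested, 1 (KRT8) was called higher and 4 lower, beside 36.5% and 35.9% over all tested genes. The part of these marker differences in the cadherin values was not tested. In bulk RNA, fewer cells with a transcript and less transcript per cell cannot be told apart.

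CDH10 and CDH7 were the members with at least 100 normalized counts on average in WT and the largest differences, and the 250 bases before 1 RefSeq start of each (build GRCh38.p14) are therefore shown. Both starts coincide with the gene start in the deposited table. Capitals mark the 4-base core of the GFI1 motif, searched as AATC on both strands, so GATT in the printed strand is a match on the other strand. The CDH10 window is chr5:24644979-24645228 on the minus strand and the CDH7 window is chr18:65750002-65750251 on the plus strand.
CDH10: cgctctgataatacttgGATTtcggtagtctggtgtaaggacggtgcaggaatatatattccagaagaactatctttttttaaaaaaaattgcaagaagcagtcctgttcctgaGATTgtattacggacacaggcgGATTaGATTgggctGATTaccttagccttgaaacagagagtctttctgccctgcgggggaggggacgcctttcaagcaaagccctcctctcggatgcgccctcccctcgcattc
CDH7: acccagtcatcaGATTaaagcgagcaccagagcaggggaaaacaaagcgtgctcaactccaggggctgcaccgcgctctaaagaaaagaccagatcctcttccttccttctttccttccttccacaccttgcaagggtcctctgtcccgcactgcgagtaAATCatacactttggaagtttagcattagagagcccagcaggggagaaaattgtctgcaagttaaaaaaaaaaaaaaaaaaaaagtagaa

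The CDH10 window held 5 matches, all as GATT, and the CDH7 window held 2, with 1 in each orientation. Of 35116 RefSeq windows of the same length, 64.8% held at least 1 match, 35.1% at least 2 and 7.15% at least 4. The general E-box CANNTG, a pattern not specific to SNAI and ZEB factors, was in neither window, against 61.8% of all windows. A further RefSeq start of CDH7, at position 65751012, had a window with 1 E-box and 1 GFI1 match and a GC content of 78.4%. GC content of the printed windows was 47.6% and 45.6%, below the median of 58% over all windows. The 3 CDH12 windows held 3, 6 and 3 GFI1 matches and the 2 CDH2 windows held 0 and 3, beside 16.9% of all windows with at least 3. RefSeq windows matched 6 of the 10 genes, in 12 windows. These are letter matches in a window and say nothing of binding.

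CDH10 was counted 143, 101 and 132 times in WT and not once in any GFI1-KO library. CDH10 is a type II cadherin of brain, at chr5:24487100-24644978. Normalized counts averaged 132 ± 18.1 in WT (SD, n = 3). With 3 counts per library as the smallest visible level, the GFI1-KO libraries were at least 46.5-fold lower. The groups did not overlap. An antisense gene, AC091885.2, lies across 2 CDH10 exons and had 1, 3 and 3 counts in WT and 0 in GFI1-KO. The strand setting of the counting is not stated, so reads of the overlapping exons cannot be told apart.

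CDH12, the neighboring type II cadherin at chr5:21750673-22853622, had 48, 42 and 42 counts in WT and 0 in every GFI1-KO library. The normalized count was 46.6 ± 2.53 in WT (SD, n = 3), and the GFI1-KO level was at least 16.4-fold lower. Of the 50-base words of CDH12 transcripts, 5.08% also occur in another gene, so some of its reads could be assigned elsewhere.

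CDH7, a type II cadherin of neural crest and hindbrain at chr18:65750252-65890341, was the third gene with a large difference. It had 201, 195 and 184 counts in WT and 10, 11 and 9 in GFI1-KO. The normalized count went from 205 ± 11.4 to 9.47 ± 0.978 (SD, n = 3 each), 21.6-fold lower (log2 fold change −4.42, SE 0.20). Unlike CDH10 and CDH12, a small count remained in each GFI1-KO library.

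CDH2, the type I N-cadherin that a mesenchymal switch would raise, overlapped between the groups. It had 127, 143 and 135 counts in WT and 136, 117 and 163 in GFI1-KO, at chr18:27950966-28177446. The normalized count was 143 ± 14.2 in WT and 131 ± 21.3 in GFI1-KO (SD, n = 3 each), a log2 fold change of −0.12 with an SE of 0.14. The sign was positive (0.16) once each library was corrected for GC content and gene length.

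CDH11 (OB-cadherin, known from bone and mesenchyme) had 0 counts in all WT libraries and 5, 3 and 5 in GFI1-KO. The normalized count in GFI1-KO was 4.10 ± 1.09 (SD, n = 3), at least 1.29-fold above the WT floor. This was the only gene of the 10 with counts in GFI1-KO and none in WT, and it was too low to pass the filter on low counts.

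**Figure D1:**
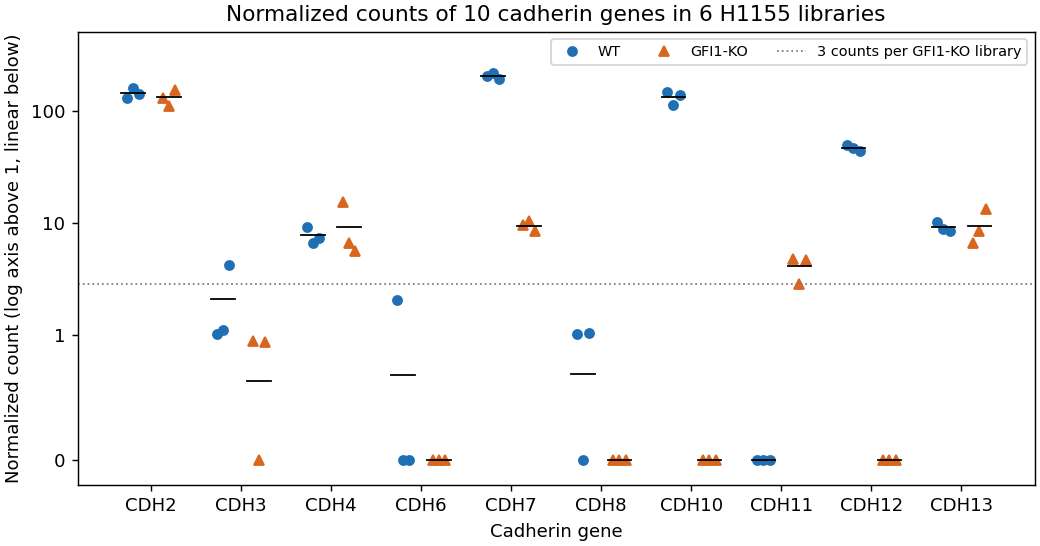
Normalized count (y axis, logarithmic above 1 and linear below) of each of the 10 cadherin genes (x axis) in 3 WT (circles) and 3 GFI1-KO (triangles) libraries, with black bars at the group means and a dotted line at 3 counts per GFI1-KO library. CDH10 and CDH12 sit at 0 in GFI1-KO, CDH7 is at 205 and 9.47, and the CDH2 points of the groups overlap.

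The remaining genes were near the limit of detection. CDH4 (R-cadherin, of retina and muscle) had 9, 6 and 7 counts in WT and 16, 7 and 6 in GFI1-KO. CDH13 had 10, 8 and 8 counts in WT and 7, 9 and 14 in GFI1-KO. Both pairs of groups overlapped. CDH3 (P-cadherin, of basal epithelium) had 1, 1 and 4 counts in WT and 1, 0 and 1 in GFI1-KO. CDH6 (K-cadherin, of kidney) had 2, 0 and 0 counts in WT and CDH8 had 1, 0 and 1, and neither was counted in GFI1-KO. No fold change is given for CDH3, CDH6 and CDH8, whose means lie below 3 counts.

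The filter on low counts kept 4 of the 10 genes (CDH2, CDH7, CDH10 and CDH12), and these are not all of the members. Of the 4, 3 were called lower in GFI1-KO and 0 higher at an adjusted p of at most 0.05, a contrast in which 72.4% of the 17514 genes tested were called, 36.5% higher and 35.9% lower. The 3 called genes were also those whose groups did not overlap, beside 74.4% of all tested genes. The median log2 fold change of the 4 was −6.48. It lies between CDH7 and CDH12, and the value fitted for CDH12 is no bound, since CDH12 had no count in GFI1-KO. CDH10 and CDH12, with no count in GFI1-KO, passed the filter only through WT, so any call could only be lower. CDH7 was also kept through its WT counts, and CDH11, counted only in GFI1-KO, was left out. The genes were picked with this contrast known, so nothing is read from these counts.

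Levels per length (FPKM) put the members in order within a group. In WT, CDH10 stood first at 2.19 ± 0.30 FPKM and CDH2 second at 1.76 ± 0.175, and their ranges overlapped. CDH7 followed at 0.856 ± 0.0475 and CDH12 at 0.477 ± 0.0257, each clear of its neighbors. CDH4 (0.0639 ± 0.0109 FPKM) and CDH13 (0.0497 ± 0.00518) overlapped each other. In GFI1-KO, CDH2 stood first at 1.59 ± 0.259 FPKM, clear of all others. CDH4 (0.0749 ± 0.0430), CDH13 (0.0507 ± 0.0180) and CDH7 (0.0391 ± 0.00403) came next with overlapping ranges, and CDH11 was at 0.0184 ± 0.00490 FPKM (SD, n = 3 for each value).

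The 10 genes summed to 5.54, 5.29 and 5.45 FPKM in WT and 1.80, 1.5 and 2.04 in GFI1-KO. The sums did not overlap and the means were 5.42 ± 0.127 and 1.78 ± 0.272, 3.05-fold apart. The 3 type I genes summed to 1.84 ± 0.164 FPKM in WT and 1.67 ± 0.260 in GFI1-KO. The 6 type II genes summed to 3.53 ± 0.287 and 0.0575 ± 0.00272, 61.4-fold apart. This sum leaves out the type II gene CDH24, at 32.0 ± 1.82 FPKM in WT and 29.2 ± 0.760 in GFI1-KO. CDH2 made up 32.5% ± 4.0 of the 10-gene sum in WT and 89.3% ± 1.95 in GFI1-KO, with its own level overlapping between groups. CDH10 made up 40.4% ± 4.65 of the 10-gene sum in WT and CDH7 15.8% ± 1.15. Of the summed FPKM of all 18 classical cadherins, CDH2 made up 4.49% ± 0.333 in WT and 4.84% ± 0.804 in GFI1-KO (SD, n = 3 for each value).

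**Figure D2:**
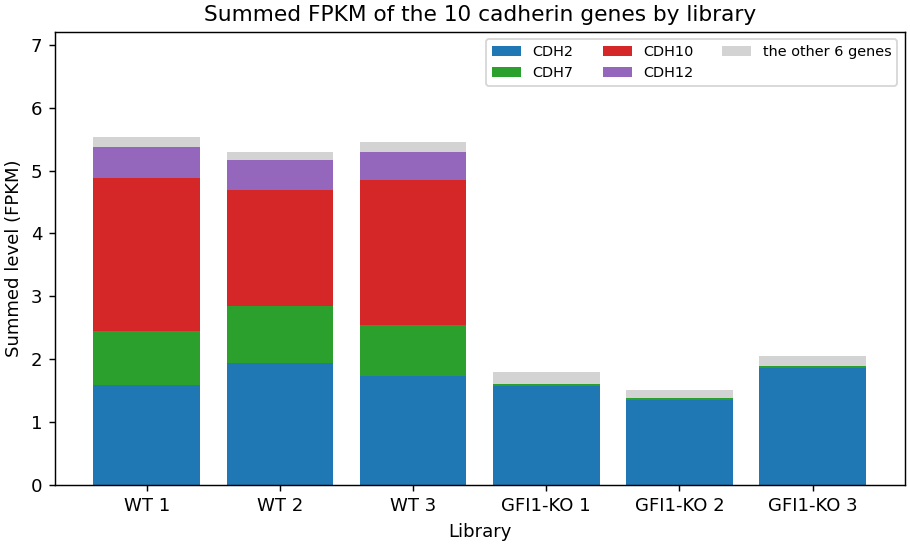
Summed level in FPKM (y axis) of the 10 cadherin genes in each library (x axis), stacked by gene. CDH2 (blue) lies between 1.34 and 1.94 FPKM in all 6 bars, while CDH10, CDH7 and CDH12 fill most of the WT bars and almost none of the GFI1-KO bars.

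Among the other 9 classical cadherins, CDH1 was low and fell. It had 35, 18 and 24 counts in WT and 10, 6 and 1 in GFI1-KO, a normalized count of 27.0 ± 8.11 and 5.39 ± 4.30 (SD, n = 3 each; log2 fold change −2.31, SE 0.45, edgeR adjusted p = 5.3e-05). Without GFI1-KO 1 the log2 fold change of CDH1 was −2.98, and without GFI1-KO 3 it was −1.81. With CDH1 lower and CDH2 overlapping, the exchange of CDH1 for CDH2 that the term cadherin switching usually names was not seen in these counts. CDH24, a type II cadherin, was by far the most abundant, with 81.8% ± 0.649 of the summed FPKM of all 18 classical cadherins in WT and 88.8% ± 1.19 in GFI1-KO. It stood at 1977 ± 112 normalized counts in WT and 1823 ± 46.9 in GFI1-KO, and it fell (log2 fold change −0.12, SE 0.04, edgeR adjusted p = 0.0179). That call was lost without WT 2 (adjusted p = 0.112), without GFI1-KO 1 (0.085) or without GFI1-KO 3 (0.068), and the log2 fold change was −0.84 after GC and length correction. Summed over the 18 classical cadherins, the level was 39.1 ± 1.92 FPKM in WT and 32.9 ± 0.507 in GFI1-KO.

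CDH22, a type II cadherin, rose from 10.3 ± 2.97 to 27.1 ± 4.80 normalized counts (log2 fold change 1.39, SE 0.35, edgeR adjusted p = 8.1e-04), a call lost with GC and length correction (0.67, adjusted p = 0.096). CDH15, of muscle, was at −0.01 (adjusted p = 0.966) and CDH5, of endothelium, at 0.47 (adjusted p = 0.176). With that correction CDH15 was called lower (−0.74, adjusted p = 5.1e-04). CDH19, which lies on chromosome 18 as CDH7 does, had 0, 0 and 1 counts in WT and 27, 8 and 30 in GFI1-KO. It did not pass the filter, and without a filter its log2 fold change was 5.44 (edgeR adjusted p = 2.0e-12). CDH9 and CDH20 had no counts, and CDH18 had 1 count in all. Of the 5 tested, 1 was called higher and 2 lower, beside 36.5% higher and 35.9% lower over all tested genes. With GC and length correction 0 were called higher and 3 lower, beside 5798 higher and 4851 lower of 17514.

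Each count of called genes in the lists that follow stands beside 72.4% called over all tested genes (36.5% higher and 35.9% lower), and each count with GC and length correction beside 5798 higher and 4851 lower of 17514, so that none of them is read as particular to its list. Of 9 catenin genes, which encode the cytoplasmic partners, 8 were tested, 2 rose and 5 fell (2 and 4 with the correction), with a median log2 fold change of −0.13 against 0.000495 over all tested genes. CTNND2, a delta-catenin of neurons, fell from 352 ± 22.8 to 220 ± 29.8 normalized counts (log2 fold change −0.68, SE 0.10, edgeR adjusted p = 6.0e-07), and its log2 fold change was −0.94 after the correction. CTNNA2, the neural alpha-catenin, fell by 0.46 and PKP4 by 0.42 on the log2 scale, with −0.33 and −0.28 after it. CTNND1 (p120), which holds cadherins at the membrane, rose by 0.13, and by 0.56 after the correction. CTNNA1 fell by 0.12 but was not called after GC and length correction (−0.02). CTNNB1 (beta-catenin) was at −0.13 and ARVCF at 0.29, and both changed sign under that correction, to 0.19 and −0.41. JUP was at 0.30 (adjusted p = 0.189), and −0.28 under it.

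**Figure D3:**
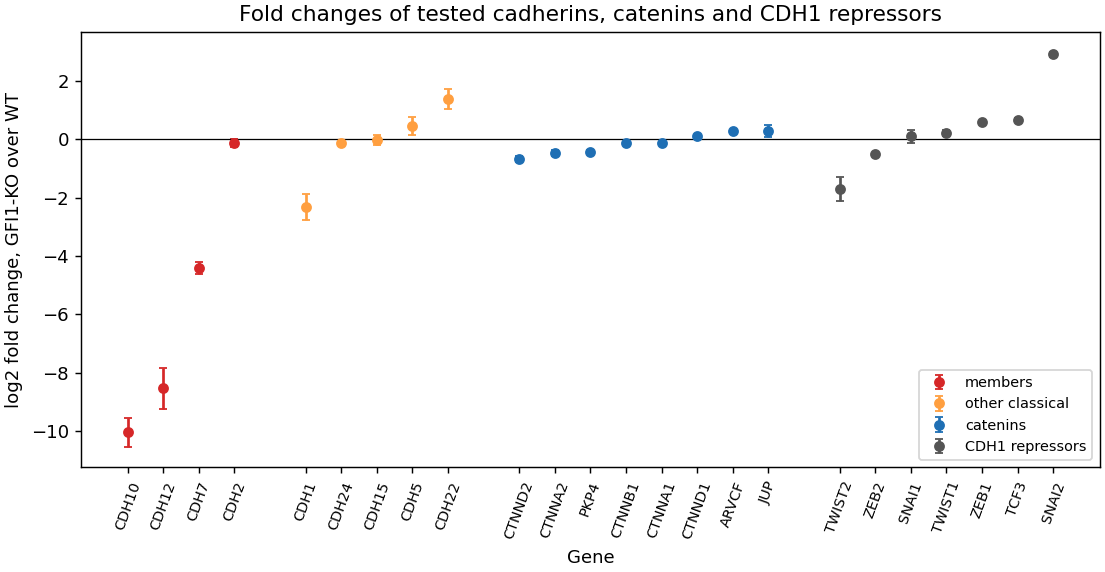
Log2 fold change of GFI1-KO over WT (y axis; bars are SE, n = 3 libraries per group) for the tested members (red), other classical cadherins (orange), catenins (blue) and CDH1 repressors (grey). CDH10, CDH12 and CDH7 lie far below 0, while the catenins lie between −0.68 and 0.30, some of them with a sign that turns under GC and length correction (CTNNB1, ARVCF and JUP).

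Of the 27 further genes of the cadherin superfamily 17 were tested, 9 rose and 5 fell (6 and 7 with GC and length correction). The giant cadherin FAT1 rose from 374 ± 27.9 to 1227 ± 24.5 normalized counts (log2 fold change 1.71, SE 0.06) and CDH23, of hair-cell tip links, from 158 ± 22.9 to 517 ± 24.3 (1.71, SE 0.09). FAT4 fell from 166 ± 18.9 to 47.4 ± 1.65 (−1.80, SE 0.15). The desmosomal cadherins DSC2 and DSG2, which also lie on chromosome 18, fell by 1.39 and 0.81 on the log2 scale, with −0.84 and −0.40 after the correction.

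Of 8 genes that link junctions to actin or encode nectins 7 were tested, 4 rose and 3 fell (3 and 2 with GC and length correction). LIMA1 (EPLIN), which ties catenins to actin, fell by 1.04 and AFDN (afadin) by 0.49 on the log2 scale, while NECTIN2 rose by 0.79 and VCL (vinculin) by 0.49. After the correction these were −0.57 for LIMA1, −0.36 for AFDN, 0.18 for NECTIN2 and 0.73 for VCL. Of 10 genes for cadherin processing, cleavage and turnover 9 were tested, 5 rose and 2 fell (8 and 1 with the correction). FURIN, a protease that removes the cadherin propeptide, rose by 0.89 (0.29 with the correction), PCSK6 by 0.83 (0.73) and PSEN2 by 0.67 (0.58), and RAB11A was at −0.51, which turned to 0.08 with the correction.

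All 7 repressors of CDH1 on the list were tested, 4 rose and 2 fell (2 and 2 with the correction). SNAI2 (SLUG) had 148, 177 and 133 counts in WT and 1271, 1236 and 1361 in GFI1-KO, without overlap (log2 fold change 2.91, SE 0.08, edgeR adjusted p = 7.7e-21). ZEB1 rose by 0.59, and by 1.14 with the correction. TCF3 was at 0.67, a call lost with the correction (0.08, adjusted p = 0.129). TWIST2 fell by 1.70 at 20.8 ± 1.15 normalized counts in WT. ZEB2 at −0.50 and TWIST1 at 0.22 changed sign with the correction, to 0.07 and −0.26, and SNAI1 was at 0.10 (adjusted p = 0.698). The TWIST1 call (edgeR adjusted p = 0.0329) was also lost with DESeq2, with upper-quartile factors, and without WT 1 (log2 fold change 0.16), WT 3 (0.15) or GFI1-KO 3 (0.17).

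CDH10 and CDH12 lie 1633 kb apart on chromosome 5, where few other genes were expressed. The genes named in this paragraph beside the members were chosen by position after their values were seen. HSPD1P1, a processed pseudogene inside the CDH12 span that covers no CDH12 exon, had a log2 fold change of −0.56 (SE 0.11). GUSBP1, 161 kb from CDH12, was at 0.12 (edgeR adjusted p = 0.289), and MSNP1, 1265 kb from CDH10, at 1.5 (SE 0.27). Reads of such pseudogenes can be shared with their parent genes. BASP1, 4474 kb from CDH12, was at −1.0 and MYO10, 4814 kb away, at 0.20. Only 4 tested genes lay within 5 Mb of CDH10 and 6 within 5 Mb of CDH12, each count including the other member. CDH10 and CDH12 were picked with the contrast known, so nothing is read from their larger differences.

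Around CDH7, 21 genes within 5 Mb were tested, with 4 higher, 13 lower and a median log2 fold change of −0.28, and the 256 tested genes of chromosome 18 had a median of −0.31. The nearest tested gene, LINC01916 at 303 kb, was at −2.11 (SE 0.44), and DSEL at 1616 kb was at −1.04. CDH19, at chr18:66501083-66604138, also lies within 5 Mb but did not pass the filter and is not among the 21. Its counts went the other way, with 0, 0 and 1 in WT and 27, 8 and 30 in GFI1-KO. SERPINB2 at 1846 kb had no count in WT and a normalized count of 16.7 ± 5.15 in GFI1-KO (SD, n = 3). Around CDH2, 31 genes were tested, with 5 higher, 18 lower and a median of −0.33. The counts around CDH7 and CDH2 stand beside 72.4% called over all tested genes, 36.5% higher and 35.9% lower. The copy number of these regions was not measured here.

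**Figure D4:**
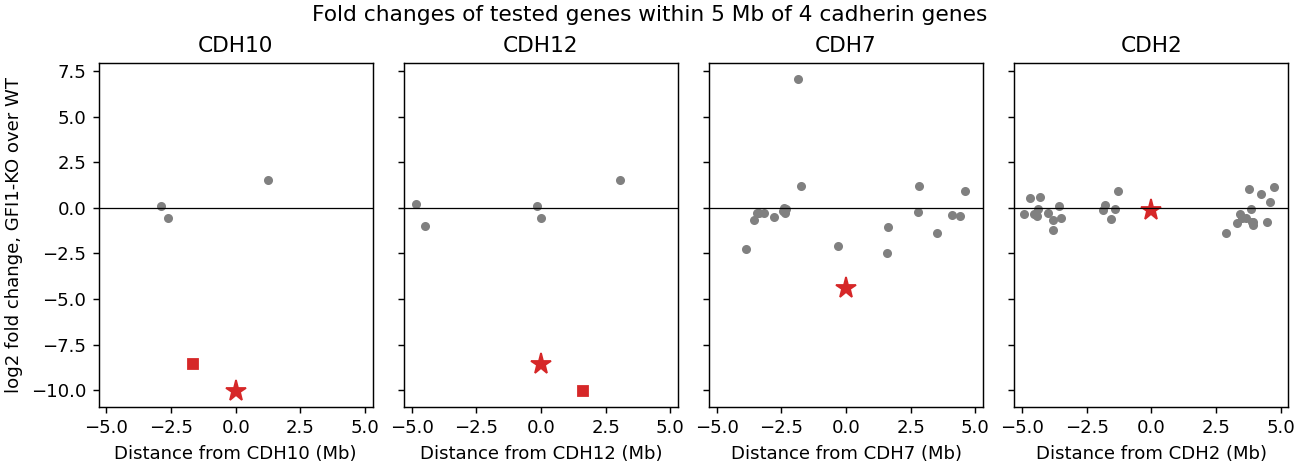
Log2 fold change of GFI1-KO over WT (y axis) against distance in Mb (x axis) for tested genes within 5 Mb of CDH10, CDH12, CDH7 and CDH2, which are drawn as stars, with other members as squares. CDH10 and CDH12 lie below −8, fitted values that are no bound since neither had a count in GFI1-KO. Their other neighbors lie between −1.0 and 1.5.

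The genes whose log2 CPM followed CDH2 and CDH7 most closely over the 6 libraries were found among 11212 protein-coding genes. For CDH2 they were CAMKK2 (Pearson r 0.989), NR2F1 (0.964) and CHSY1 (0.923). For CDH7 they were PPM1L (r 1.000), CFAP97 and KPNA1, all of them lower in GFI1-KO, at log2 fold changes of −1.12, −0.96 and −0.51. The correlations are descriptions over 6 libraries that fall into 2 groups.

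Fold changes over all tested genes were related to GC content (Spearman rho 0.574 across genes, which are not independent) and the rho was −0.000761 after correction. The members have a GC content between 36.2% and 59.7%, beside a median of 48.2% over tested genes. With the correction the log2 fold changes were −3.75 for CDH7, −9.89 for CDH10 and −8.37 for CDH12.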

How the data were processed

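RNA-Seq counts of H1155 cells were analyzed from 3 WT and 3 GFI1-KO libraries, grouped by the sample labels. The authors deposited raw counts per gene with no normalization, beside gene length, start and end. The methods of the study name Hisat2 and featureCounts, whereas the submitters' processing notes name Bowtie2, HTSeq and hg38. Annotation, strand setting and the rule for multiply mapped reads are not given in the sources used here. Genes were tested with edgeR 4.0.16 in R 4.3.3 (TMM factors, filterByExpr, quasi-likelihood F test, Benjamini-Hochberg adjustment over 17514 genes, adjusted p at most 0.05). Normalized counts are scaled to the mean effective library size, and FPKM uses the deposited length and library total. The log2 fold change fitted for a gene without counts in a group depends on the prior count and is no bound. A floor of 3 counts per library was used, which covers counting error only. GC content came from GENCODE release 44 (values for 99.4% of tested genes), and promoter windows from RefSeq. Replicate libraries differed beyond counting noise (chi-square per degree of freedom 1.88 to 5.10). DESeq2 1.42.0 and limma 3.58.1 served as alternatives, and the main test was tested on simulated data. Named genes were GFI1, the members, genes of the lists (those with a mean of at least 100 normalized counts and the largest changes first) and, for CDH2 and CDH7, the 3 genes with the highest correlation. The members and lists were chosen with earlier results of these data known. Single-gene results of some listed genes are not reported here.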

Additional observations from a re-analysis of the deposited data

How the results depend on the processing

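CDH7, CDH10 and CDH12 were called lower in every alternative that tested them. Their log2 fold changes were −4.49 to −3.75, −10.19 to −8.13 and −8.60 to −6.64. These are refits of the same counts for genes picked with the contrast known, so nothing is read from the agreement. With at least 10 counts required in every library none of these genes is tested, so 0 members were called lower. At that filter 1 of 3 tested other classical cadherins was called, beside 11577 of 15359 over all tested genes. With no filter 1 member, CDH11, was called higher (log2 fold change 5.09). That value is no bound, since CDH11 had no count in WT. With GC and length correction, the sign turned for CDH2 (0.16), CDHR2 (−0.26), CLSTN1 (−0.034), DCHS1 (−0.34), CTNNB1 (0.19), JUP (−0.28), ARVCF (−0.41), NECTIN3 (0.19), ADAM15 (−0.27), CBLL1 (0.32), RAB11A (0.085), SNAI1 (−0.45), ZEB2 (0.072) and TWIST1 (−0.26). The same correction with the replicate block gave CDH2 0.16, CDHR2 −0.26, CLSTN1 −0.034, DCHS1 −0.34, CTNNB1 0.19, JUP −0.27, ARVCF −0.41, NECTIN3 0.19, ADAM15 −0.27, CBLL1 0.32, RAB11A 0.085, SNAI1 −0.45, ZEB2 0.072 and TWIST1 −0.26. CDH15, near 0, turned to 0.010 with limma-voom and 0.0035 with no filter. With 1 library left out the log2 fold change was −0.13 to 0.18 for CDH15, −0.032 to 0.41 for CDHR3 and −0.072 to 0.18 for SNAI1. The median near CDH2 was −0.073 within 2 Mb and −0.39 within 10 Mb, and near CDH7 −1.04 within 2 Mb, where only 5 genes were tested.

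Same-numbered libraries did not deviate together (r −0.00628, 0.0132 and 0.0215). The main test used no pairing, and this check cannot show whether same-numbered libraries shared a culture or a batch. The replicate block left 3 members called lower and moved the count over all genes from 12680 to 12573. Only 4 of the 10 members had enough counts for the main test, and CDH3, CDH6 and CDH8 were too low for a difference to be seen. Without a filter the log2 fold change was 0.25 (SE 0.51) for CDH4 and 0.06 (SE 0.48) for CDH13. Differences in these genes that are small beside those errors were not detectable at this depth.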
